A study of Mus musculus with 10 samples.

Results

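Amino acid transporter genes were followed through RNA sequencing libraries of reporter-labelled cells, taken by flow sorting from brain tissue on the ischemic side. The set was defined by symbol and not by measured values, though it was chosen with earlier results of these data known. It held every gene of the deposited count table whose mouse symbol belonged to the families Slc1a, Slc3a, Slc6a, Slc7a, Slc36a, Slc38a or Slc43a, except symbols ending in os or -ps, and came to 55 of 28585 genes. The families contributed 5, 2, 18, 13, 4, 10 and 3 genes in that order. After the low-count filter 34 of the 55 could be tested, and the other 21 stayed under 1 CPM (a gene's counts relative to the library total, scaled with TMM) in every library.

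The study compared 3 groups of cells. 3 libraries, numbered 39, 40 and 41 in their titles, held CX3CR1+ microglia of CX3CR1CreERT2:Rosa26-tdT mice aged 13 to 14 weeks, in which a Cre recombinase expressed from the fractalkine receptor gene switches on a red reporter. That gene is also active in other brain macrophages and in monocytes. Another 3 libraries, numbered 3, 11 and 15, held CD11c-eYFP+ cells of C57BL/6 mice aged 15 to 16 weeks that shared a circulation, by parabiosis, with Tg(Itgax-Venus)1Mnz partners. The yellow reporter stands under the control of Itgax, the CD11c gene, so in these mice only cells that came from the partner can carry it, and CD11c cells of the host itself are not labelled. The last 4 libraries, numbered 23, 24, 26 and 27, held CD11c-eYFP+ cells of Tg(Itgax-Venus)1Mnz mice aged 13 to 14 weeks, in which every cell that expresses Itgax can be labelled, microglia included. All groups came from ischemic tissue, no group came from uninjured brain, and the sources used here do not give the time after ischemia. The mice were labelled female, except that parabiotic replicate 15 has no sex label. That library also lacks a cell type label and any mention of parabiosis, and was placed by its title and age.

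Solute carriers of these families move amino acids and a few related molecules across the plasma membrane or out of lysosomes. Some are exchangers that swap one amino acid for another, among them the Slc7 light chains, which reach the cell surface only when joined to a heavy chain such as Slc3a2. Others draw on sodium or protons to concentrate glutamine, alanine, glutamate, taurine or creatine inside the cell. In phagocytes of the brain they are known for clearing glutamate, for importing cystine for glutathione and for supplying arginine and branched-chain amino acids.

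Library totals lay between 31534625 and 41730688 counts, and members together took 0.244% to 0.385% of a library. Summed levels of 9 microglia markers were 20654 to 23101 CPM in microglia, 2062 to 3606 CPM in parabiotic and 6332 to 18275 CPM in transgenic libraries. Summed levels of 10 markers of conventional dendritic cells were 229 to 349 CPM in microglia, 27062 to 34625 CPM in parabiotic and 4129.6 to 17077 CPM in transgenic libraries. The transgenic libraries thus carried both sets of markers, with transgenic replicate 26 highest in microglia markers and replicate 27 lowest. Summed levels of 9 endothelial markers were 132 to 277 CPM in microglia, 115 to 156 CPM in parabiotic and 81.7 to 169 CPM in transgenic libraries. For 9 neutrophil markers they were 410 to 490, 143 to 1008 and 88.8 to 300 CPM in the same order, highest in parabiotic replicate 11. In such bulk RNA a lower share of cells that express a gene and less RNA per cell cannot be told apart, and the part of these marker differences in the results below was not tested. The column labels of transgenic replicates 26 and 27 carry library numbers apart from those of the other 8 libraries. Since the second run of numbers holds 1 group alone, values with a term for it, called within-run values, are given beside transgenic results. With that term, transgenic replicates 23 and 24 alone set the transgenic mean. The same holds without both libraries of the second run, so these alternatives are not separate checks.

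Parabiotic CD11c cells differed from microglia in 17 of the 34 tested members, 10 higher and 7 lower (edgeR quasi-likelihood test, adjusted p under 0.05). Of all 15151 tested genes 35.3% passed in this comparison, 17.4% higher and 17.9% lower. The median log2 fold change of tested members was -0.10, against -0.02 over all tested genes. Libraries of the groups did not overlap in 21 of 34 members (61.8%), against 60.3% of all tested genes. Cationic amino acid, glutamine, cystine, taurine and creatine carriers were among the higher members. The glutamate carrier Slc1a3 and the light chain Slc7a8 were among the lower ones. Without parabiotic replicate 15, whose labels are incomplete, 16 members were called.

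Transgenic CD11c cells differed from microglia in 5 of 34 members, with Slc7a2, Slc6a8 and Slc1a5 higher and Slc7a8 and Slc6a9 lower. The share over all tested genes was 13.7%, with 8.88% higher and 4.79% lower, and the median log2 fold change was -0.11 for tested members and 0.02 for all genes. Without microglia replicate 39 or without replicate 40 the count was 1, without parabiotic replicate 11 it was 3, within the run it was 3, and without both libraries of the second run it was 6. Transgenic and parabiotic CD11c cells differed in 6 of 34 members. Slc1a3, Slc43a3, Slc7a8 and Slc38a10 were higher and Slc43a2 and Slc36a2 lower in the transgenic cells, against 10.1% of all tested genes called, 7.63% higher and 2.42% lower. The medians here were -0.18 and 0.04. That count was 2 without transgenic replicate 23, without replicate 24 or without parabiotic replicate 3, 3 without microglia replicate 40 or parabiotic replicate 11, 6 within the run, 7 without both libraries of the second run and 4 without parabiotic replicate 15. Libraries did not overlap in 11 of 34 members in each of these comparisons (32.4%), against 30.3% and 22.7% of all tested genes. The 3 comparisons share their groups pairwise, so they are not independent of each other.

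**Figure D1:**
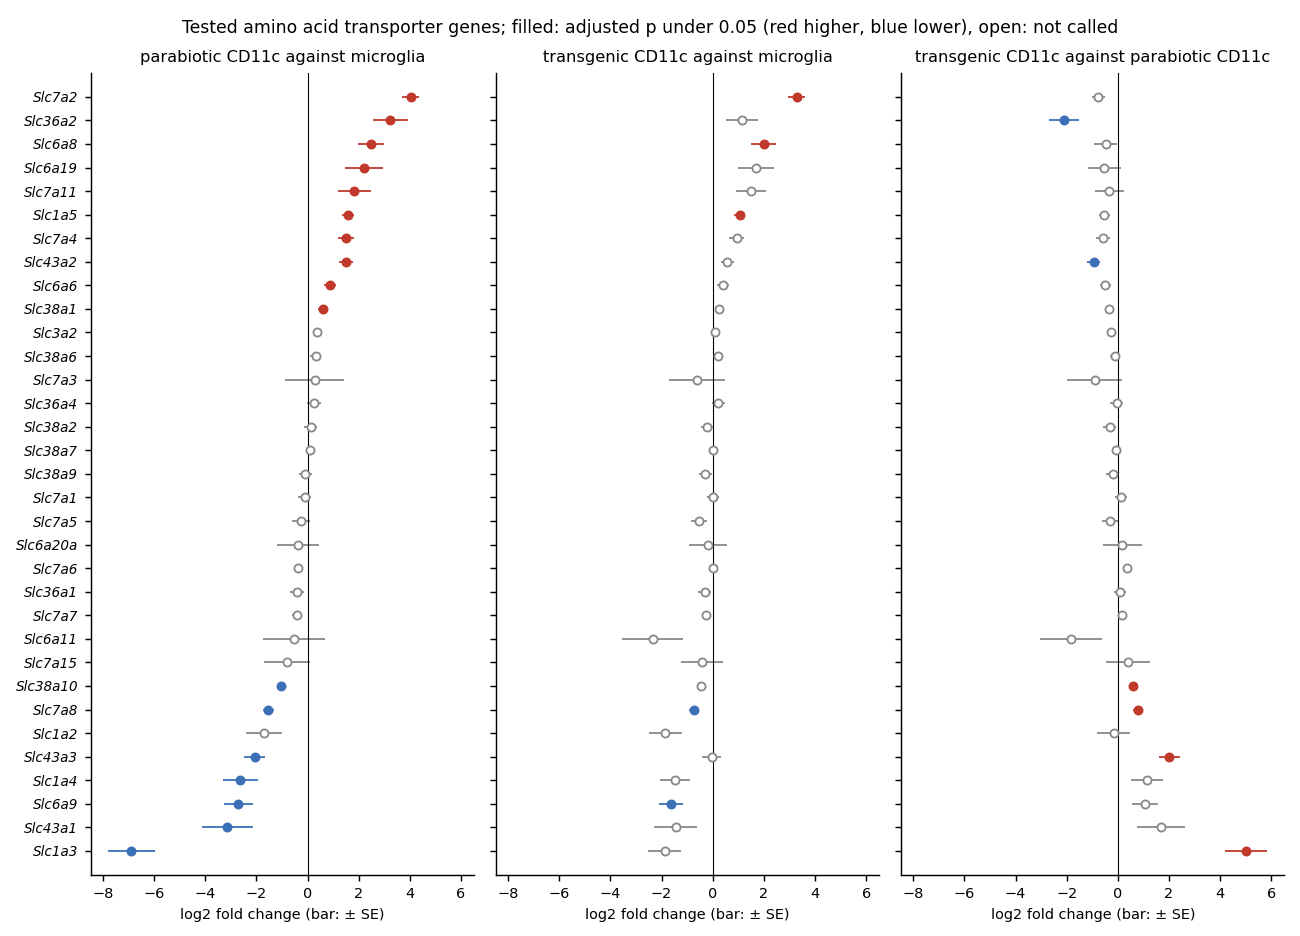
Log2 fold changes of the tested amino acid transporter genes named in the text, in the 3 comparisons, 1 row per gene, with bars of 1 standard error and filled points for an adjusted p under 0.05. Filled points lie on both sides of 0 in every comparison, 17, 5 and 6 in turn, with Slc7a2 highest at 4.04 and Slc1a3 lowest at -6.89 in parabiotic cells against microglia.

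Per kilobase of exon, Slc3a2 was the highest member in every group, with 154 ± 7.15 (SD, n = 3) CPM per kb in microglia, 201 ± 12.3 (n = 3) in parabiotic and 165 ± 20.8 (n = 4) in transgenic cells. Slc3a2 (ENSMUSG00000010095, chr19:8706882-8723369), also known as CD98 heavy chain, measured 571, 535 and 522 CPM in the microglia, 746, 662 and 723 in the parabiotic and 539, 638, 502 and 651 in the transgenic libraries. All parabiotic libraries lay above all microglia and transgenic libraries, but neither difference passed the test, with log2 fold changes of 0.39 ± 0.15 against microglia (adjusted p = 0.0679) and -0.29 ± 0.14 for transgenic against parabiotic cells (adjusted p = 0.253). The former was called without transgenic replicate 26 or 27 (adjusted p = 0.0279 to 0.0304), and also with DESeq2 and within the run. So it was with only the 2 groups compared and without both libraries of the second run.

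Slc7a8 (ENSMUSG00000022180, chr14:54722209-54781946) encodes LAT2, an exchanger of neutral amino acids, and measured 665, 652 and 626 CPM in the microglia, 208, 221 and 242 in the parabiotic and 439.6, 493, 368 and 249.7 in the transgenic libraries. The 3 groups did not overlap, with microglia highest, parabiotic cells lowest and transgenic cells between them, and transgenic replicate 27 close to the parabiotic libraries. Against microglia the log2 fold change was -1.53 ± 0.22 in parabiotic cells (adjusted p = 0.000363) and -0.74 ± 0.20 in transgenic cells (adjusted p = 0.0353). The value in transgenic cells was -0.47 ± 0.17 within the run (adjusted p = 0.134), and it was not called without microglia replicate 39, 40 or 41 or parabiotic replicate 3, 11 or 15 (adjusted p = 0.0572 to 0.124), nor with only the 2 groups compared (adjusted p = 0.0853). Transgenic cells were above parabiotic cells by 0.79 ± 0.21 (adjusted p = 0.0343), or 1.06 ± 0.17 within the run (adjusted p = 0.00351). It was not called without microglia replicate 39, 40 or 41, parabiotic replicate 3, 11 or 15 or transgenic replicate 23, 24 or 26 (adjusted p = 0.0548 to 0.15), nor with only the 2 groups compared (adjusted p = 0.0945).

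The other light chains were lower per kilobase. Slc7a7, the y+LAT1 chain that exports arginine, measured 109, 118 and 116 CPM in the microglia, 66.9, 82.9 and 105 in the parabiotic and 91, 97.2, 110.5 and 82.3 in the transgenic libraries, and its parabiotic libraries lay below all microglia without passing the test (log2 fold change -0.43 ± 0.18, adjusted p = 0.0936). It was called without parabiotic replicate 15 (adjusted p = 0.0383), and also with only the 2 groups compared and without both libraries of the second run. Exons of Oxa1l on the opposite strand cover 7% of the exon length of Slc7a7, and the libraries do not keep strand. Slc7a5, the LAT1 chain that brings in leucine and other large neutral amino acids, measured 105, 78.5 and 54.2 CPM in the microglia, 71.9, 57.8 and 71.5 in the parabiotic and 62.3, 68.9, 23.7 and 63.6 in the transgenic libraries. Its groups overlapped throughout, and it was not called in any comparison (log2 fold changes -0.24 ± 0.35, -0.54 ± 0.33 and -0.30 ± 0.33). Slc7a6 was not called either, at -0.37 ± 0.17 in parabiotic cells against microglia (adjusted p = 0.105), although its parabiotic libraries lay below all microglia. That difference was called with upper quartile scaling, with DESeq2, with the filter of at least 5 CPM in at least 3 libraries and without both libraries of the second run.

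Set against the heavy chain, the summed level per kilobase of 6 light chains (Slc7a5, Slc7a6, Slc7a7, Slc7a8, Slc7a10 and Slc7a11) was 1.24, 1.27 and 1.22 times that of Slc3a2 in the microglia libraries. The same ratio was 0.429, 0.487 and 0.517 in the parabiotic and 0.917, 0.851, 0.834 and 0.56 in the transgenic libraries, so the groups did not overlap. Slc7a8 made up 66, 67.4 and 69.2% of that sum in microglia, 45.9, 48.4 and 45.7% in parabiotic and 62.8, 64, 61.9 and 48.2% in transgenic libraries. These ratios describe RNA and say nothing of assembled transporters, and they depend on exon lengths summed over all annotated transcripts of a gene.

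**Figure D2:**
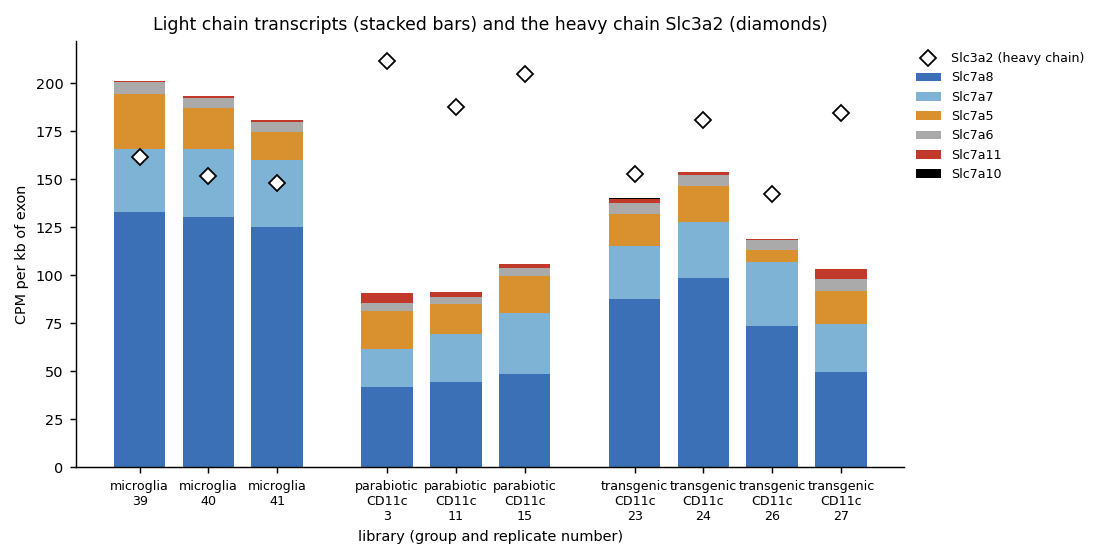
Stacked bars give the CPM per kilobase of exon of 6 Slc7 light chains in each of the 10 libraries, from 0, and diamonds give their heavy chain Slc3a2. The bars rise above the diamonds in the 3 microglia libraries and stay below them in all CD11c libraries, and Slc7a8 is the largest segment in every library.

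Slc7a11 (ENSMUSG00000027737, chr3:49892526-50443614) encodes xCT, the light chain that trades intracellular glutamate for cystine, and measured 10.5, 16.2 and 10.5 CPM in the microglia, 68.2, 36 and 28.6 in the parabiotic and 28.9, 24.7, 8.48 and 77.3 in the transgenic libraries. All parabiotic libraries lay above all microglia, while transgenic libraries ranged from below microglia in replicate 26 to above every parabiotic library in replicate 27. The log2 fold change of parabiotic cells against microglia was 1.84 ± 0.63 (adjusted p = 0.0419). It was not called without microglia replicate 39, 40 or 41, parabiotic replicate 3 or 11 or transgenic replicate 23 (adjusted p = 0.0513 to 0.154), nor with limma-voom or without a filter on low counts (adjusted p = 0.066 to 0.139). In transgenic cells the value was 1.49 ± 0.60 against microglia (adjusted p = 0.112), or 1.11 ± 0.69 within the run (adjusted p = 0.412). It was called without transgenic replicate 26 (adjusted p = 0.0342), and also with DESeq2.

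Cystine taken up by xCT feeds the synthesis of glutathione. Of 17 tested genes for glutathione synthesis, targets of the antioxidant factor NRF2 and related genes, 12 were higher in parabiotic cells than in microglia and none lower. These counts stand beside 17.4% and 17.9% of all tested genes, and the list median was 1.32 against -0.02 for all genes. The lowest p-values belonged to Cd44 at 3.61 ± 0.34, the microsomal glutathione transferase Mgst1 at 6.21 ± 0.67 and the ubiquinone reductase Aifm2 at 3.10 ± 0.34. Cd44 is an adhesion receptor that associates with xCT and not an enzyme of glutathione synthesis. With the term for the library run, 13 of the 17 were higher in parabiotic cells than in microglia and none lower. The synthesis gene Gclc and Nfe2l2, the gene of NRF2 itself, were not among these 13. With that term Gclc and Nfe2l2 stood at -0.17 (adjusted p = 0.219) and 0.20 (adjusted p = 0.302), and their values without it are not given here. In transgenic cells 9 of the 17 were higher than in microglia, beside 8.88% of all tested genes (median 0.70 against 0.02), 5 of them within the run, 3 without microglia replicate 39 or replicate 40 and 5 without replicate 41. Cd44 was the 1 gene of the list called lower in transgenic than in parabiotic cells (-1.06 ± 0.28), beside 2.42% of all tested genes. It was not called without microglia replicate 40, parabiotic replicate 3, 11 or 15 or transgenic replicate 23 or 24 (adjusted p = 0.0591 to 0.143), nor with only the 2 groups compared (adjusted p = 0.0649). Within the run Cd44 was not called (-1.14, adjusted p = 0.0721) and 5 other genes were lower, namely Gclm, Prdx1, Mgst1, Aifm2 and Gpx4, at -0.73 for Gpx4 to -2.51 for Mgst1. Without both transgenic libraries of the second run 11 of the 17 were lower in that comparison, and without replicate 27 alone 8. Shares of all tested genes under these settings are not given, so these counts cannot be read as particular to the list. The summed level of 7 monocyte markers was 10.003 to 12.9 CPM in microglia, 892 to 1062 CPM in parabiotic and 254 to 708 CPM in transgenic libraries, and its part in these values was not tested.

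Among the cationic amino acid carriers Slc7a2 had the largest log2 fold change. Slc7a2 (ENSMUSG00000031596, chr8:40862396-40922308) encodes CAT2, which brings arginine and lysine into activated macrophages, and measured 0.565, 0.583 and 0.823 CPM in the microglia, 8.82, 13.1 and 10.6 in the parabiotic and 7.42, 5.88, 4.3 and 8.01 in the transgenic libraries. Every CD11c library lay above every microglia library, and parabiotic lay above transgenic libraries. The log2 fold changes against microglia were 4.04 ± 0.33 in parabiotic (adjusted p = 1.09e-05) and 3.28 ± 0.32 in transgenic cells (adjusted p = 0.000162), the latter 3.34 ± 0.34 within the run (adjusted p = 0.000213). Both calls held under every alternative processing and with each library left out. The difference between transgenic and parabiotic cells, -0.76 ± 0.27, did not pass (adjusted p = 0.103). It was called without transgenic replicate 27 (adjusted p = 0.0471), and also with DESeq2.

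Slc7a1, which encodes CAT1, the widely expressed carrier of the same amino acids, was not called, with log2 fold changes of -0.12 ± 0.25, 0.00 ± 0.23 and 0.12 ± 0.23 in the 3 comparisons. Slc7a4 (ENSMUSG00000022756, chr16:17572018-17583214), a family member whose transported molecule is not established, measured 2.43, 2.55 and 2.41 CPM in the microglia, 7.41, 6.3 and 7.47 in the parabiotic and 4.8, 5.5, 6.1 and 2.56 in the transgenic libraries. The parabiotic libraries lay above all others, and the log2 fold change against microglia was 1.52 ± 0.32 (adjusted p = 0.00344). In transgenic cells it was 0.94 ± 0.30 (adjusted p = 0.0577), or 1.06 ± 0.33 within the run (adjusted p = 0.083). It was called without transgenic replicate 27 (adjusted p = 0.00456), and also with DESeq2 and without both libraries of the second run. Exons of other genes on the opposite strand cover part of Slc7a4 (P2rx6) and Slc7a2 (Gm26584), 13.3% and 6.95% of their exon length, and the library kit does not keep strand, so reads in those stretches cannot be assigned.

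Of 12 tested enzymes that use arginine or make polyamines, 4 were higher in parabiotic cells than in microglia, beside 17.4% of all tested genes, with a list median of 0.59 against -0.02 for all genes. They were the arginases Arg2 (6.12 ± 0.76) and Arg1 (6.39 ± 1.65), the arginine-producing lyase Asl (0.78 ± 0.13) and Oat (0.63 ± 0.19), which breaks down ornithine and was named outside the rule to complete the count. Oat was not called without microglia replicate 39, 40 or 41 or parabiotic replicate 3 or 15 (adjusted p = 0.0589 to 0.09). Without a filter on low counts the adjusted p of Arg1 was 0.0767. In transgenic cells the 2 arginases were called higher than in microglia, beside 8.88% of all tested genes, Arg2 at 4.39 ± 0.70 and Arg1 at 6.08 ± 1.61. Within the run Arg2 alone was called (3.78), and Arg1 fell to 2.62 (adjusted p = 0.231). Arg1 in that comparison was not called without microglia replicate 39, 40 or 41 (adjusted p = 0.0948 to 0.13), nor with limma-voom, without a filter on low counts or with only the 2 groups compared (adjusted p = 0.0633 to 0.2). Asl was lower in transgenic than in parabiotic cells (-0.58 ± 0.12, or -0.58 within the run), and it was not called without parabiotic replicate 3 or 11 (adjusted p = 0.0529 to 0.0635).

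Among carriers of glutamate and small neutral amino acids, Slc1a3 had the lowest log2 fold change of all tested members. Slc1a3 (ENSMUSG00000005360, chr15:8634124-8710764) encodes GLAST, the sodium-driven glutamate transporter best known from astrocytes. It measured 151, 137 and 89 CPM in the microglia, 0, 1.16 and 2.03 in the parabiotic and 40.4, 45.9, 37.1 and 12.7 in the transgenic libraries, with a count of 0 in parabiotic replicate 3. The groups did not overlap, and transgenic libraries lay between microglia and parabiotic libraries. The log2 fold change was -6.89 ± 0.91 for parabiotic cells against microglia (adjusted p = 0.000185) and 5.00 ± 0.83 for transgenic against parabiotic cells (adjusted p = 0.00303), the latter 5.35 ± 0.82 within the run (adjusted p = 0.00319). Against microglia the transgenic value of -1.88 ± 0.64 did not pass (adjusted p = 0.0698), nor did it within the run (-1.54 ± 0.73, adjusted p = 0.27). It was called without parabiotic replicate 3 (adjusted p = 0.0148), and also with limma-voom and with only the 2 groups compared.

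Because astrocytes express Slc1a3, their markers are given beside it. The summed level of 8 astrocyte markers was 23.5 to 48.4 CPM in microglia, 16.8 to 18.1 CPM in parabiotic and 14 to 20.1 CPM in transgenic libraries. 3 of the 8 were lower in parabiotic cells than in microglia and 2 lower in transgenic cells, among them Gfap with a mean of 17 ± 6.7 CPM in microglia, against 1.59 ± 0.112 for parabiotic and 5.62 ± 0.773 for transgenic cells. Log2 fold changes against microglia were above 0 for 3 of the 8 in parabiotic cells (at most 0.76) and for 2 in transgenic cells (at most 0.33). They were below 0 for the other 5 and 6. Aqp4 and Gjb6 stayed at or below 1.38 and 0.608 CPM in all 10 libraries, and Aqp4 was at 0 in parabiotic replicate 3 and Gjb6 in transgenic replicate 26. The part of astrocyte RNA in the Slc1a3 values was not tested. Slc1a3 in microglia libraries was 151, 137 and 89 CPM beside 17.9, 23.2 and 9.88 CPM for Gfap. Slc1a2, the other glutamate transporter of astrocytes, measured 2.68, 3.78 and 1.39 CPM in microglia and was not called (log2 fold change -1.69 ± 0.69, adjusted p = 0.0789 in parabiotic cells). It was called there without parabiotic replicate 11 (adjusted p = 0.0462), and also with DESeq2 and with limma-voom.

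Slc1a5 (ENSMUSG00000001918, chr7:16781340-16798274) encodes ASCT2, an exchanger that brings in glutamine, and measured 26.1, 25.3 and 26 CPM in the microglia, 72.9, 76.7 and 82.1 in the parabiotic and 64.6, 68.4, 34.3 and 47.3 in the transgenic libraries. Microglia libraries lay close together and below every CD11c library. The rise was 1.58 ± 0.23 in parabiotic cells (adjusted p = 0.000397) and 1.06 ± 0.22 in transgenic cells (adjusted p = 0.0108), or 1.37 ± 0.15 within the run (adjusted p = 0.000279). In transgenic cells it was not called without microglia replicate 39 or 40 (adjusted p = 0.0589 to 0.0636). Slc1a4 (ENSMUSG00000020142, chr11:20302180-20332713), whose product ASCT1 carries alanine, serine and cysteine, went the other way and measured 6.89, 5.53 and 3.07 CPM in the microglia, 0.201, 0.365 and 1.94 in the parabiotic and 1.56, 2.21, 1.7 and 1.95 in the transgenic libraries. All parabiotic libraries lay below all microglia, with a log2 fold change of -2.62 ± 0.68 (adjusted p = 0.0117). The transgenic value of -1.48 ± 0.59 did not pass (adjusted p = 0.112). That value was called without parabiotic replicate 15 (adjusted p = 0.0254), and also with DESeq2 and with only the 2 groups compared.

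In the Slc38 family of glutamine and alanine carriers, 6 of 10 members were tested. Slc38a10 (ENSMUSG00000061306, chr11:120103960-120151346), a broadly expressed carrier of glutamine and glutamate, measured 474, 451 and 501 CPM in the microglia, 242, 209.9 and 237 in the parabiotic and 374, 387, 348 and 288 in the transgenic libraries. The groups did not overlap, in the order microglia, transgenic, parabiotic. It was lower in parabiotic cells than in microglia at a log2 fold change of -1.05 ± 0.15 (adjusted p = 0.000371), and higher in transgenic than in parabiotic cells at 0.60 ± 0.14 (adjusted p = 0.0219), or 0.73 ± 0.13 within the run (adjusted p = 0.0074). The latter was not called without parabiotic replicate 3, 11 or 15 or transgenic replicate 23 or 24 (adjusted p = 0.0531 to 0.122), nor without a filter on low counts or with only the 2 groups compared (adjusted p = 0.0601 to 0.0642). Against microglia the transgenic value was -0.44 ± 0.14 (adjusted p = 0.0593) and was called without transgenic replicate 24 (adjusted p = 0.0493). RLE scaling, upper quartile scaling, DESeq2 and the filter of at least 5 CPM in at least 3 libraries also gave a call. Exons of Gm11769 on the opposite strand cover 5.72% of the exon length of Slc38a10.

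Slc38a1 (ENSMUSG00000023169, chr15:96571418-96642913), the glutamine importer SNAT1, measured 124, 121 and 132 CPM in the microglia, 207, 180.3 and 181 in the parabiotic and 169.6, 169, 126 and 128 in the transgenic libraries. Parabiotic libraries lay above microglia and above all transgenic libraries, and the rise over microglia was 0.59 ± 0.16 (adjusted p = 0.0161). It was not called without microglia replicate 39 or 40 or parabiotic replicate 3 (adjusted p = 0.0602 to 0.0848). In transgenic cells the value of 0.24 ± 0.15 did not pass (adjusted p = 0.304) but did within the run, at 0.43 ± 0.12 (adjusted p = 0.0478). Slc38a2, the SNAT2 importer that responds to amino acid shortage, measured 430.4, 408 and 283 CPM in the microglia, 463, 366 and 389.7 in the parabiotic and 381, 382, 189.97 and 343 in the transgenic libraries. Its groups overlapped, and it was not called in any comparison (0.12 ± 0.26, -0.21 ± 0.24 and -0.33 ± 0.24). The lysosomal carriers Slc38a7 and Slc38a9 and the family member Slc38a6 were not called either.

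Of 11 tested genes of glutamate and glutamine metabolism, 3 were higher and 3 lower in parabiotic cells than in microglia (list median 0.18), beside 17.4% higher and 17.9% lower and a median of -0.02 for all tested genes. The aspartate aminotransferase Got1 was higher at 1.89 ± 0.21. Glul, the enzyme that makes glutamine from glutamate, was lower at -1.60 ± 0.23 with means of 179 ± 41.8 CPM in microglia, against 59 ± 13.5 for parabiotic and 119 ± 16 for transgenic cells. Gpt and Gpt2, the alanine aminotransferases of cytosol and mitochondria, moved in opposite directions, at 1.39 ± 0.29 and -1.22 ± 0.31. In transgenic cells 2 were called higher than in microglia, beside 8.88% of all tested genes, Got1 at 0.96 ± 0.20 and Got2, the mitochondrial aspartate aminotransferase, at 0.71 ± 0.21, and within the run Got1 alone (1.07). Got1 in that comparison was not called without microglia replicate 39 or 40 (adjusted p = 0.0665 to 0.0745). Got2 was not called without microglia replicate 39, 40 or 41, parabiotic replicate 3, 11 or 15 or transgenic replicate 26 or 27 (adjusted p = 0.058 to 0.214), nor with RLE scaling, with upper quartile scaling, with limma-voom, without a filter on low counts, with only the 2 groups compared or without both libraries of the second run (adjusted p = 0.0512 to 0.123). Between transgenic and parabiotic cells Glul was higher at 1.01 ± 0.21 (0.98 within the run) and Got1 lower at -0.92 ± 0.19 (-0.81). Glul was not called without parabiotic replicate 3 or 11 (adjusted p = 0.0585 to 0.0676). Got1 was not called without parabiotic replicate 3 (adjusted p = 0.0614).

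The Slc43 family split. Slc43a2 (ENSMUSG00000038178, chr11:75531694-75577575) encodes LAT4, through which leucine and other large neutral amino acids leave or enter the cell without exchange, and measured 181, 145 and 119 CPM in the microglia, 408, 461 and 399 in the parabiotic and 248, 236, 123 and 273 in the transgenic libraries. All parabiotic libraries lay above all others. The rise over microglia was 1.51 ± 0.27 (adjusted p = 0.00148), and transgenic cells were below parabiotic cells at -0.94 ± 0.25 (adjusted p = 0.0346), or -0.80 ± 0.30 within the run (adjusted p = 0.116). The latter difference was not called without microglia replicate 40, parabiotic replicate 3, 11 or 15 or transgenic replicate 23 or 24 (adjusted p = 0.051 to 0.119), nor with only the 2 groups compared (adjusted p = 0.0612). Exons of Gm45606 on the opposite strand cover 9.18% of its exon length.

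Slc43a1 (ENSMUSG00000027075, chr2:84838850-84863594), the related LAT3, measured 2.4, 2.95 and 2.69 CPM in the microglia, 0.0574, 0.852 and 0 in the parabiotic and 1.26, 1.29, 1.04 and 0.341 in the transgenic libraries. Microglia lay above both CD11c groups, with -3.14 ± 1.00 in parabiotic cells (adjusted p = 0.031). That call rests on few reads, and it was not called without microglia replicate 39, 40 or 41 or parabiotic replicate 3 or 15 (adjusted p = 0.0585 to 0.0994). Slc43a3 (ENSMUSG00000027074, chr2:84936579-84958509), a member that carries purine nucleobases rather than amino acids, measured 27.3, 28.7 and 47.9 CPM in the microglia, 8.79, 6.93 and 9.2 in the parabiotic and 27.1, 26.1, 62.3 and 19.1 in the transgenic libraries. Parabiotic libraries lay below all others, with a log2 fold change of -2.06 ± 0.41 against microglia (adjusted p = 0.00263). Transgenic cells were above parabiotic cells by 2.02 ± 0.39 (adjusted p = 0.00765), or 1.68 ± 0.42 within the run (adjusted p = 0.0308), and near microglia at -0.04 ± 0.37 (adjusted p = 0.948).

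**Figure D3:**
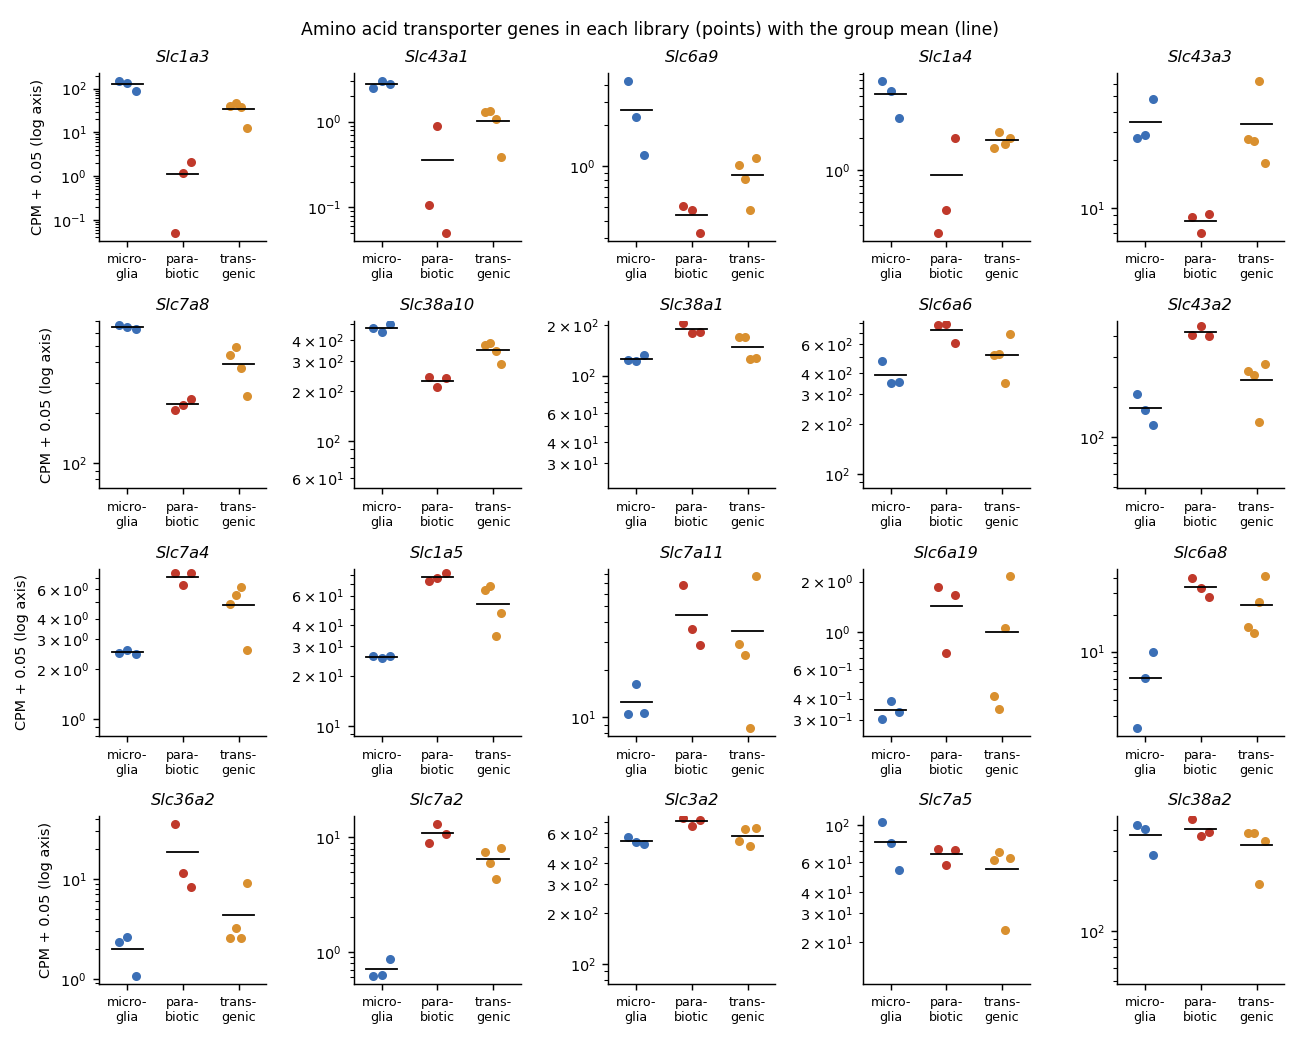
CPM plus 0.05 on a log axis, 1 point per library and a line at each group mean, for the 17 amino acid transporter genes called in at least 1 comparison and for Slc3a2, Slc7a5 and Slc38a2. Each panel has its own axis range. Points of microglia and parabiotic cells do not overlap in the 17 called genes. All 4 transgenic points lie between them for Slc1a3, Slc1a5, Slc38a10, Slc7a2, Slc7a4 and Slc7a8, but not for the other called genes. The transgenic points spread most for Slc7a11.

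Carriers of taurine, creatine and glycine belong to the Slc6 family, in which 7 of 18 members were tested. Slc6a6 (ENSMUSG00000030096, chr6:91684053-91759066), the taurine transporter, was second to Slc3a2 per kilobase in parabiotic cells and measured 472, 350.4 and 356 CPM in the microglia, 777, 791 and 606 in the parabiotic and 512, 521, 348 and 689.7 in the transgenic libraries. Parabiotic libraries lay above all microglia, and the rise was 0.88 ± 0.24 (adjusted p = 0.0143). It was not called without microglia replicate 40 or 41 or parabiotic replicate 11 (adjusted p = 0.0505 to 0.0671). Transgenic libraries overlapped with both groups, at 0.40 ± 0.22 against microglia (adjusted p = 0.239).

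Slc6a8 (ENSMUSG00000019558, chrX:73673150-73682502), the creatine transporter, measured 2.32, 5.99 and 9.81 CPM in the microglia, 39.6, 33.1 and 27.6 in the parabiotic and 15.8, 14, 25.3 and 41.1 in the transgenic libraries. All CD11c libraries lay above all microglia. The rise was 2.47 ± 0.51 in parabiotic cells (adjusted p = 0.00339) and 2.0 ± 0.49 in transgenic cells (adjusted p = 0.0223), but 1.31 ± 0.45 within the run (adjusted p = 0.122). In transgenic cells it was not called without microglia replicate 39 or 40 (adjusted p = 0.074 to 0.098), nor with only the 2 groups compared or without both libraries of the second run (adjusted p = 0.0547 to 0.0864).

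Slc6a9 (ENSMUSG00000028542, chr4:117834506-117875198), the glycine transporter GlyT1, measured 4.21, 2.24 and 1.17 CPM in the microglia, 0.46, 0.426 and 0.273 in the parabiotic and 0.977, 0.755, 0.43 and 1.1 in the transgenic libraries. All CD11c libraries lay below all microglia. The log2 fold change was -2.71 ± 0.56 in parabiotic cells (adjusted p = 0.00319) and -1.64 ± 0.48 in transgenic cells (adjusted p = 0.0446), or -1.55 ± 0.60 within the run (adjusted p = 0.167). In transgenic cells it was not called without microglia replicate 39 or 40, parabiotic replicate 3, 11 or 15 or transgenic replicate 23, 24 or 26 (adjusted p = 0.0566 to 0.234), nor with limma-voom, without a filter on low counts, with only the 2 groups compared or without both libraries of the second run (adjusted p = 0.0522 to 0.0818). Exons of Ccdc24 and Gm17114 on the opposite strand cover 27.8% and 9.94% of its exon length. Slc6a19 (ENSMUSG00000021565, chr13:73679745-73704865), the neutral amino acid transporter B0AT1 of gut and kidney, was near the detection limit at 0.254, 0.338 and 0.285 CPM in the microglia, 1.81, 0.7 and 1.61 in the parabiotic and 0.363, 0.297, 1.01 and 2.12 in the transgenic libraries. Parabiotic libraries lay above microglia by 2.22 ± 0.74 (adjusted p = 0.038), and the difference was not called without microglia replicate 39, 40 or 41 or parabiotic replicate 3 or 15 (adjusted p = 0.0901 to 0.113), nor with limma-voom (adjusted p = 0.0679). Transgenic libraries overlapped with parabiotic libraries, and the difference of -0.53 ± 0.64 did not pass (adjusted p = 0.688). Within the run, with transgenic replicates 26 and 27 set apart, transgenic cells were called lower, at -2.05 ± 0.56 (adjusted p = 0.0427).

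In the Slc36 family of amino acid carriers, 3 of 4 members were tested. Slc36a2 (ENSMUSG00000020264, chr11:55158470-55185077), which encodes PAT2, a carrier of glycine, alanine and proline, measured 2.26, 2.58 and 1.01 CPM in the microglia, 35.7, 11.4 and 8.26 in the parabiotic and 2.48, 3.15, 2.5 and 8.96 in the transgenic libraries. Parabiotic libraries lay above microglia by 3.24 ± 0.69 (adjusted p = 0.00398). Transgenic cells were lower than parabiotic cells at -2.11 ± 0.59 (adjusted p = 0.0456), or -2.71 ± 0.76 within the run (adjusted p = 0.049), although transgenic replicate 27 overlapped with the parabiotic range. That difference was not called without microglia replicate 39, 40 or 41, parabiotic replicate 3 or 11 or transgenic replicate 23, 24 or 26 (adjusted p = 0.0526 to 0.285), nor without a filter on low counts or with only the 2 groups compared (adjusted p = 0.0804 to 0.0882). The lysosomal carriers Slc36a1, at -0.41 ± 0.26 in parabiotic cells against microglia (adjusted p = 0.242), and Slc36a4, at 0.25 ± 0.27 (adjusted p = 0.512), were not called. Slc36a4 was called there without both libraries of the second run (adjusted p = 0.0482).

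Lysosomal amino acid carriers report to the kinase complex mTORC1, and 34 genes of that sensing machinery were tested. In parabiotic cells 10 were higher and 3 lower than in microglia, beside 17.4% and 17.9% of all tested genes, with a list median of 0.27 against -0.02 for all genes. The Rag GTPases Rragb (5.06 ± 0.59) and Rraga (1.15 ± 0.17), which tether mTORC1 to the lysosome, and the Ragulator scaffold Lamtor1 (0.71 ± 0.16) had the lowest p-values among the higher genes, although Rragb itself was low at 0.128 ± 0.086 and 4.44 ± 1.21 CPM. Rptor, the subunit that binds mTORC1 substrates, had the lowest p-value among the lower genes (-1.88 ± 0.34). The count of 13 was 8 without microglia replicate 39 and 7 without parabiotic replicate 3. In transgenic cells 5 were higher and 2 lower than in microglia, beside 8.88% and 4.79% of all tested genes, which came to 3 genes within the run and 2 without microglia replicate 39 or replicate 40. Rragb and Rraga were higher there at 3.46 ± 0.55 and 0.85 ± 0.16, or 3.87 and 0.68 within the run, and Rptor lower at -1.37 ± 0.31, or -0.88. Rptor in that comparison was not called without microglia replicate 39 or 40 (adjusted p = 0.0623 to 0.0681). Rragb was lower in transgenic than in parabiotic cells (-1.60 ± 0.43), and it was not called without microglia replicate 40, parabiotic replicate 3, 11 or 15 or transgenic replicate 24 or 26 (adjusted p = 0.0582 to 0.162), nor without both libraries of the second run (adjusted p = 0.0523). Within the run Rragb was not called (-1.20, adjusted p = 0.11), and the genes called were Rptor and Depdc5, higher, and Lamtor1, lower.

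Shortage of amino acids is known to act through the factor ATF4, of which Slc7a11, Slc3a2, Slc7a5 and Slc38a2 are textbook targets. Of 22 other tested genes of this response, 4 were lower and 1 higher in parabiotic cells than in microglia (list median -0.10), beside 17.9% lower and 17.4% higher of all tested genes, and without transgenic replicate 27 the count was 9. The 3 genes with the lowest p-values, all lower, were Phgdh, the first enzyme of serine synthesis, at -5.06 ± 0.22, the stress regulator Nupr1 at -1.40 ± 0.20 and the cystathionine synthase Cbs at -3.90 ± 0.87. The 1 higher gene, Chac1, which degrades glutathione, stood at 0.212 ± 0.0828 and 0.815 ± 0.229 CPM (1.93 ± 0.68), and it was not called without microglia replicate 39, 40 or 41, parabiotic replicate 3, 11 or 15 or transgenic replicate 23 (adjusted p = 0.0585 to 0.136), nor with upper quartile scaling, with limma-voom or without a filter on low counts (adjusted p = 0.0526 to 0.0918). Atf4 itself was not called, at 0.15 ± 0.29 (adjusted p = 0.733). Phgdh measured 67.2, 47.6 and 49.3 CPM in the microglia, 1.49, 1.73 and 1.7 in the parabiotic and 27.1, 25.7, 34.4 and 30.2 in the transgenic libraries, and its groups did not overlap. Transgenic cells were below microglia at -0.90 ± 0.17 and above parabiotic cells at 4.16 ± 0.21, or -1.05 and 4.0 within the run. Between transgenic cells and microglia 4 genes were called, beside 13.7% of all tested genes, 1 of them within the run and 1 without microglia replicate 39 or replicate 40. Phgdh, Psat1 and Nupr1 were higher in transgenic than in parabiotic cells, beside 7.63% of all tested genes, and 7 genes were called in that comparison without transgenic replicate 27. Psat1, an enzyme of serine synthesis, stood at 1.55 ± 0.30 there (1.07 within the run) and Nupr1 at 0.71 ± 0.19 (0.84). Nupr1 was not called without microglia replicate 39 or 40, parabiotic replicate 3 or 15 or transgenic replicate 23 or 24 (adjusted p = 0.0572 to 0.17), nor without a filter on low counts or with only the 2 groups compared (adjusted p = 0.0647 to 0.0868).

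**Figure D4:**
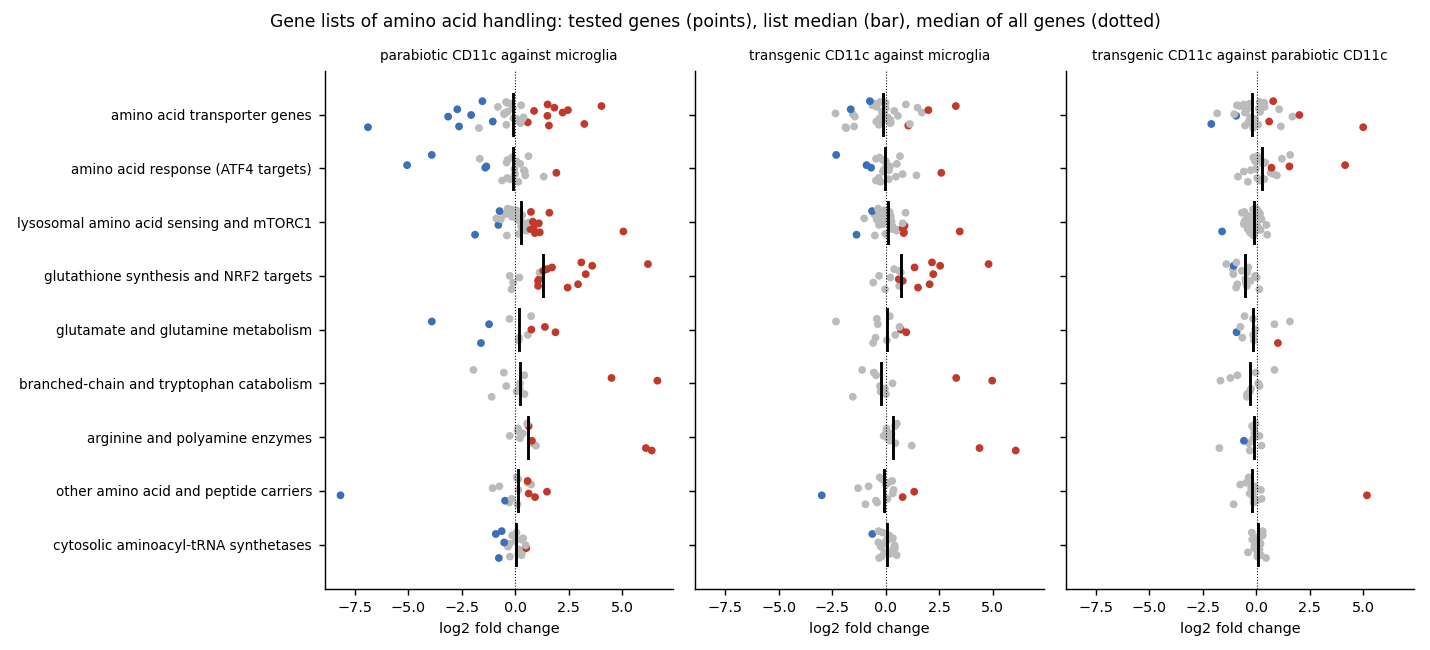
Log2 fold changes in the 3 comparisons of the tested amino acid transporter genes and of 8 lists of related genes, 1 point per gene, coloured by whether the adjusted p was under 0.05, with a bar at each list median and a dotted line at the median of all tested genes. In parabiotic cells against microglia the bar of the glutathione list stands at 1.32 and that of the transporters at -0.10.

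Promoter letters are shown for the 4 tested members whose start sites carry, word for word, a motif of the amino acid response or of lysosomal genes. The motifs searched on both strands were TGATGNAA, the core of the ATF4 response element, TCACGTGA, the CLEAR element bound by TFEB, TGACNNNGC, the core of the antioxidant response element, and GAGGAAGT, bound by the macrophage factor PU.1. The RefSeq windows ran from 250 bases before to 50 after each start (build GRCm38.p6). TGATGNAA occurred in 3.97% of all 32851 windows and in 5 of the 58 windows of members, which covered 39 of the 55 genes. A window of Slc6a21, a member that was not tested, holds it too and is not shown. TCACGTGA occurred in 0.974% of all windows and in 1 window of a member, and GAGGAAGT in 3.2% and in 1, that of Slc43a1. TGACNNNGC was more common, in 12.4% of all windows and 11 of the 58. Each stretch below gives the 150 bases before the start site and the 20 from it, 5′ to 3′ on the strand of the gene, with matches in capitals. Slc7a11 is at chr3:50443594-50443763 (minus strand), Slc1a4 at chr11:20332694-20332863 (minus), Slc7a7 at chr14:54417925-54418094 (minus) and Slc36a1 at chr11:55204190-55204359 (plus).
Slc7a11: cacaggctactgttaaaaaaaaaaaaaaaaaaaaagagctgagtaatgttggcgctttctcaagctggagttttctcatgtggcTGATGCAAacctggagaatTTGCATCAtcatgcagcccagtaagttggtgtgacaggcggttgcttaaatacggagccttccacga
Slc1a4: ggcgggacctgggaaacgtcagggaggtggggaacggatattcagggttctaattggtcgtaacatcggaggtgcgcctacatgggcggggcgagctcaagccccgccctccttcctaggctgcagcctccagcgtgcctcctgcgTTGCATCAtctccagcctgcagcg
Slc7a7: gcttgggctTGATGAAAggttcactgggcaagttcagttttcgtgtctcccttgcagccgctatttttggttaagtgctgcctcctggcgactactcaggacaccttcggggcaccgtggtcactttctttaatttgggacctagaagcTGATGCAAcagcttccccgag
Slc36a1: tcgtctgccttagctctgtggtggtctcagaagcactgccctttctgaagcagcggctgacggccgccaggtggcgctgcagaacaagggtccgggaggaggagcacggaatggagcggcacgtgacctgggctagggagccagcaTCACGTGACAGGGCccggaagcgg

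Slc7a11 holds the word TGATGCAA in both orientations, a few bases apart. Slc1a4 has it once in reverse, and Slc7a7 has it once beside the related TGATGAAA. In Slc36a1 the capitals run on into TGACAGGGC, a match to TGACNNNGC that overlaps the CLEAR word. In parabiotic cells against microglia Slc7a11 was called higher and Slc1a4 lower, while Slc7a7 and Slc36a1 were not called. A match describes these letters alone, and no binding was measured.

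Spread among libraries was unequal between the groups. Over the 21 members with a mean of at least 10 CPM, the median ratio of the highest to the lowest library was 1.24 in microglia, 1.19 in parabiotic cells (20 members, since Slc1a3 had a count of 0) and 1.98 in transgenic cells. Such a ratio tends to grow with the number of libraries, here 4 transgenic against 3 in each other group. Only the transgenic group spans both runs of library numbers, and the part of either in the ratio was not tested. Transgenic replicate 26 was lowest of its group in 13 of the 21 members and highest in 3, and replicate 27 was lowest in 6 and highest in 8, as often highest as replicate 24. The largest ratio, 9.12, was that of Slc7a11 in transgenic cells.

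Members outside these descriptions were low or not called. Slc1a2, Slc6a11, Slc6a20a, Slc7a3 and Slc7a15 were tested at low levels and not called in any comparison. The 21 members that could not be tested reached at most 0.989 CPM in any library (Slc38a5), and they included 11 of the 18 Slc6 members, among them the dopamine, serotonin and noradrenaline transporters Slc6a3, Slc6a4 and Slc6a2. 29 of the 55 members had at least 1 count in all 10 libraries.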

How the data were processed

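The deposited table holds whole-number counts per Ensembl gene, made by the authors, for 28585 genes in 10 libraries of sorted brain cells. Per the submitters' processing notes, FastQC 0.11.5, STAR 2.5.3a, DESeq2 and GRCm38 were used. How reads were counted, with which annotation and strand setting, is not stated in those sources. Per the labels' protocols, cDNA was made by template switching from little RNA, and the libraries do not keep strand. Symbols and gene coordinates came from GENCODE M21 on GRCm38, which matched 28492 identifiers, and the other 93 had no symbol.

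All 10 libraries entered 1 fit with 1 mean per group in edgeR 4.0.16 (TMM, filterByExpr, which kept 15151 genes, robust quasi-likelihood F test, R 4.3.3). P-values were adjusted by Benjamini-Hochberg over all tested genes, with a threshold of 0.05. Shares of all tested genes come from this fit, and none is given for the alternatives. Values after ± are standard errors for log2 fold changes and SD for levels. CPM per kb divides by the union of a gene's exons. The labels do not say that replicates are separate mice, so p-values measure the spread between these libraries, which may be technical. No pair of replicates agreed within sampling noise. Totals between 31534625 and 41730688 counts leave the spread between libraries, more than counting error, as the limit of precision. The members and lists were chosen with earlier results of these data known. Members were named where called in at least 1 comparison or among the 6 highest, and list genes as up to 3 with the lowest p in each direction. 1 tested member, not called in any comparison, is not reported here. The script was tested on simulated data. Alternatives were RLE and upper quartile scaling, DESeq2 1.42.0, limma-voom (limma 3.58.1), no filter, a minimum of 5 CPM reached by 3 libraries, fits of the compared groups alone, a term for the library run, no second-run libraries, and each library left out.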

Additional observations from a re-analysis of the deposited data

Results flagged for a closer look

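In 3 of the 34 tested members 1 of the 4 transgenic libraries stood apart from the rest of its group by Dixon's criterion, which chance meets in about 1 of 20 groups. Slc36a2 reached 8.96 CPM in transgenic replicate 27, against 2.48 to 3.15 CPM in the other transgenic libraries. Slc7a5 measured 23.7 CPM in transgenic replicate 26, against 62.3 to 68.9 CPM in the others. Slc6a11, a GABA transporter, was at 0.485 CPM in transgenic replicate 24 and between 0 and 0.0558 CPM in the others, a level of few reads.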

How the results depend on the processing

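No fold change of a called member changed direction under any alternative. The count of members that differed between parabiotic cells and microglia, 17, ranged from 14 to 22 over the alternatives that kept all replicates of these groups, and from 12 to 18 with each library left out. For transgenic cells against microglia the count of 5 became 10 with DESeq2 and 3 with a term for the library run, and ranged from 1 to 6 with each library left out. For transgenic against parabiotic cells the count of 6 became 2 with only these groups in the fit, and ranged from 2 to 8 with each library left out. The cause was not tested. The filter of at least 5 CPM in at least 3 libraries gave no value for the members below it. RLE and upper quartile scaling moved the median of all genes by at most 0.08 on the log2 scale. No paired analysis was possible because the groups share no replicate numbers. Members under 1 CPM were limited by depth.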

Other observations

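Outside transport, 11 genes of branched-chain amino acid and tryptophan breakdown were tested. Of these, 2 were higher in parabiotic cells than in microglia, beside 17.4% of all tested genes, both of the kynurenine route, the hydrolase Kynu at 4.51 ± 0.55 and the monooxygenase Kmo at 6.66 ± 0.90 on the log2 scale. They measured 1.13, 0.982 and 0.665 CPM in the microglia, 21.3, 20.9 and 21.4 in the parabiotic and 13.9, 12.5, 7.59 and 2.65 in the transgenic libraries for Kynu and 0.65, 1.23 and 0.601 CPM in the microglia, 90.9, 61.1 and 99 in the parabiotic and 45.1, 45.2, 10.05 and 4.53 in the transgenic libraries for Kmo. Transgenic cells were also above microglia, at 3.30 ± 0.51 for Kynu and 4.98 ± 0.83 for Kmo, or 3.83 and 5.77 within the run. With limma-voom the adjusted p of Kmo in that comparison was 0.0522.

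Of 20 tested cytosolic aminoacyl-tRNA synthetases, which load amino acids onto tRNA, 4 were lower and 1 higher in parabiotic cells than in microglia, beside 17.9% and 17.4% of all tested genes, with a list median of 0.03 against -0.02 for all genes. The alanyl, valyl and tyrosyl enzymes Aars, Vars and Yars stood at -0.76 ± 0.14, -0.91 ± 0.20 and -0.63 ± 0.14. The count of 5 was 3 without microglia replicate 39, without parabiotic replicate 11 or without parabiotic replicate 15.

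Of 16 tested carriers of amino acids and peptides from other families, 4 were higher and 2 lower in parabiotic cells than in microglia, beside 35.3% of all tested genes in either direction. The mitochondrial aspartate-glutamate carrier Slc25a13 was higher at 1.49 ± 0.17, and at 1.33 ± 0.16 in transgenic cells (1.38 within the run). The lysosomal sialic acid and acidic amino acid carrier Slc17a5 was higher at 0.93 ± 0.18. The lower genes were Slc17a7, which loads glutamate into synaptic vesicles and is also on the list of neuron markers, and the lysosomal histidine and peptide carrier Slc15a4. Slc17a7 measured 1.19, 1.23 and 0.633 CPM in the microglia, 0, 0 and 0 in the parabiotic and 0.0837, 0.27, 0.0253 and 0.122 in the transgenic libraries (adjusted p = 0.00102 for parabiotic cells against microglia), and a count of 0 allows up to 0.0861 to 0.0911 CPM in the parabiotic libraries. In transgenic cells it was lower than in microglia at -2.99 ± 0.69, and it was not called without microglia replicate 39 or 40 (adjusted p = 0.106 to 0.107), nor within the run (adjusted p = 0.102). The summed level of the 8 neuron markers was 4.59 to 6.14 CPM in microglia, 0.152 to 1.34 CPM in parabiotic and 1.17 to 3.8 CPM in transgenic libraries, and its part in these values was not tested. Slc15a4 stood at -0.47 ± 0.17 in parabiotic cells, and it was not called without microglia replicate 39, 40 or 41, parabiotic replicate 3, 11 or 15 or transgenic replicate 23 or 24 (adjusted p = 0.0558 to 0.151), nor without a filter on low counts (adjusted p = 0.0826). The count of 6 was 3 without microglia replicate 39 or replicate 40.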
